A study of Mus musculus with 14 samples.

Results

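The secreted Wnt antagonists were followed in 14 RNA sequencing libraries of clonal mouse bone marrow stromal cells. The genes were chosen by symbol: Sfrp1, Sfrp2, Sfrp4, Sfrp5, Frzb, Wif1, Dkk1, Dkk2, Dkk3 and Sost. Of these 10 genes, 9 have a row among the 23331 genes of the count table, and Sfrp5 was not analysed here. All 9 had at least 1 read somewhere, and 7 passed the expression filter (at least 1 CPM, the read count scaled to library size, in at least 3 libraries) and were tested. Dkk1 and Sost did not pass it and are given as read counts. Dkk2 passed through 4 libraries only, OA3, O3, OC3 and AC3, all of them pools of clones.

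Wnt proteins are secreted signals that bind Frizzled receptors together with the co-receptors LRP5 and LRP6. In the canonical branch this stabilises beta-catenin, which enters the nucleus and works with TCF/LEF factors. In bone marrow stroma, canonical Wnt signalling is known to favour osteoblast over adipocyte formation. The antagonists act outside the cell. Secreted Frizzled-related proteins (Sfrp1, Sfrp2, Sfrp4 and Frzb, also called Sfrp3) and Wnt inhibitory factor 1 (Wif1) bind Wnt proteins, while Dkk1, Dkk2 and sclerostin (Sost) bind LRP5 and LRP6. Dkk3 is a divergent Dickkopf protein that is not a typical LRP6 ligand.

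Marrow was flushed from leg bones (femora, tibiae) of adult irtTA-GBD*-TAg mice on a C57Bl/6 background. They carry a transgene that makes large T antigen, a viral protein that keeps cells dividing, as long as dexamethasone and doxycycline are present. All 14 libraries share this transgene, growth with both inducers, and 3 days without them before RNA was taken. Clones had been typed by which of bone, fat and cartilage they could form, and the letters of a library name list these lineages (O for osteogenic, A for adipogenic, C for chondrogenic). The groups OAC, OA, O and A have 3 libraries each, while OC3 and AC3 stand alone. A library numbered 1 or 2 is a single clone, and within a group these clones came from separate mice. A library numbered 3 pools several further clones of the same animals. The labels do not say whether a number stands for the same mouse in every group. The p-values therefore measure the spread between a few clones and pools. In a pool, fewer expressing cells and less RNA per cell cannot be told apart.

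Total counts were 16888190 to 26076539 per library. Summed adipocyte markers (8 genes) reached 248 to 1169 CPM in the 10 adipogenic-capable libraries, against 57.3 to 118 CPM in the other 4. Of these genes only Plin4 and Lpl separated the same sides by themselves. Fabp4 had 4.50 to 74.9 CPM in the 10 and 26.8 to 85.3 CPM in the other 4. The late markers Adipoq and Plin1 stayed at or below 8.86 and 1.45 CPM in every library. Summed osteoblast markers (8 genes) were 24900 to 55920 CPM in the 10 osteogenic-capable libraries, against 6343 to 19770 CPM in the other 4. Col1a1, also a stromal marker below, made up most of this sum in every library. Alpl, Ibsp and Sp7 separated the same sides, while Runx2, Phex, Bglap and Spp1 overlapped. Spp1 had 143 to 2060 CPM in the 10 and 913 to 1343 CPM in the other 4. Summed marrow stromal markers (10 genes) were 18300 to 90390 CPM, although Thy1, one of them, never reached 1 CPM. Endothelial and blood cell markers summed to at most 6.56 and 17.2 CPM. Several libraries followed the GC content of genes. The rank correlation of a gene's deviation from its mean with its GC content, across 13409 genes that are not independent, was 0.658 in OA2 and 0.519 in O1, against -0.55 in OAC3 and OC3 and -0.542 in AC3.

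The antagonists spanned a wide range of levels, and 2 of them made up most of the total. Measured as RPKM (reads per kilobase of exonic length, scaled to library size), which allows genes to be compared, the median over libraries was 652 for Sfrp2 and 131 for Dkk3. It was 24.9 for Sfrp1, 3.82 for Frzb, 3.01 for Wif1, 0.396 for Sfrp4 and 0.0547 for Dkk2, and it was 0 for Dkk1 and Sost. By mean RPKM, Sfrp2 ranked 52 and Dkk3 ranked 336 among all 23331 genes. Sfrp2 was the leading antagonist in every library, with 51.0% (OC3) to 88.7% (O2) of the summed RPKM of the 9 genes. Dkk3 held 4.94% (A1) to 40.2% (OC3). Sfrp1 held 19.0% in A1 but 0.00529% in O1, and Wif1 held at most 7.17%, in OC3. Frzb stayed between 0.264% and 1.01%.

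**Figure D1:**
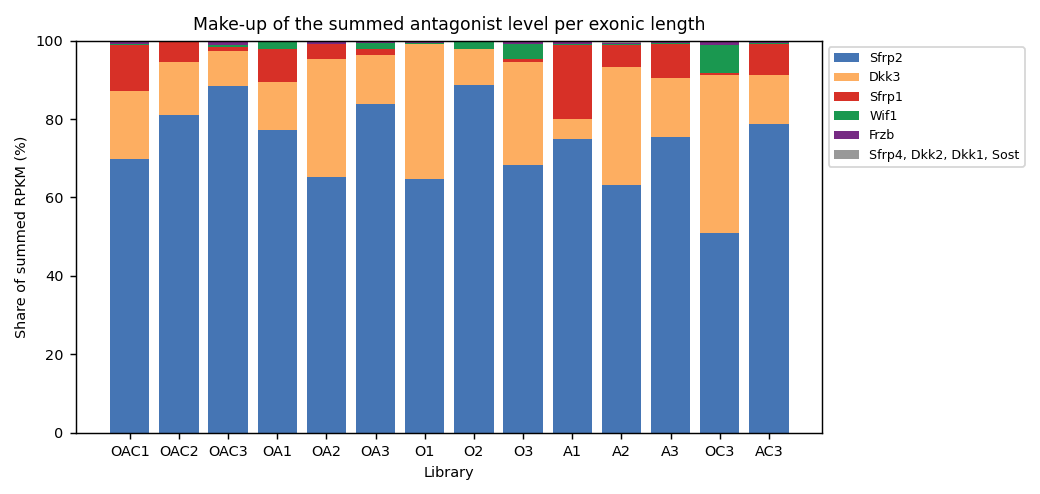
Stacked bars give each antagonist's share (%) of the RPKM summed over the 9 genes, 1 bar per library. Sfrp2 is the greatest part of every bar, from 51.0% to 88.7%, and the Sfrp1 part reaches 19.0% in A1.

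No antagonist passed an FDR of 0.05 in edgeR's quasi-likelihood test in any of 10 comparisons: any difference among the 4 replicated groups, 6 pairs of groups, and 3 terms for osteogenic, adipogenic and chondrogenic capability fitted over all 14 libraries. Over all genes, 0.0072% of 13896 were called in OAC vs A, OA vs A and O vs A, and 0% in the other 7. At an unadjusted p under 0.05, edgeR found 2 of the 7 antagonists over all 4 groups (5.97% of all genes), 1 in OAC vs OA (1.17%), 2 in OAC vs O (6.02%), 1 in OA vs O (5.43%), 2 in O vs A (9.89%) and 1 for adipogenic capability (9.65%). It found 0 in OAC vs A (3.58%), OA vs A (5.27%) and for osteogenic (7.84%) and chondrogenic capability (5.12%). DESeq2, the second test, called 1 antagonist, Sfrp1, in each of 4 comparisons. Its background there was 2.1% of genes over the 4 groups, 0.728% in OAC vs O, 3.03% in O vs A and 1.46% for adipogenic capability. It called 0 antagonists in OAC vs OA (0% of genes), OA vs O (0.309%), OAC vs A (0.411%), OA vs A (0.937%) and for osteogenic (1.28%) and chondrogenic capability (0.0217%). DESeq2 gave no adjusted p for Sfrp4 in the 3 capability terms or for Dkk2 in OA vs O, so that 6 of the 7 antagonists could be called there. Libraries of the compared sides did not overlap for 0 antagonists in OAC vs A (10.8% of genes), for osteogenic capability (1.06%) and for chondrogenic capability (0.166%), and the other comparisons are given with the gene. The pairs of groups share libraries, so their results are not independent of each other.

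Among the Wnt-binding proteins, Sfrp1 differed most between libraries. The gene lies at chr8:23411502-23449632 on the plus strand in GENCODE M21 (build GRCm38, as for the other positions of genes). It reached 678, 223 and 40.2 CPM in OAC1, OAC2 and OAC3, and 161, 134 and 50.3 CPM in OA1, OA2 and OA3. It was at 0.127, 5.68 and 16.4 CPM in the libraries O1, O2 and O3, and at 853, 83.9 and 318 CPM in A1, A2 and A3. The pools OC3 and AC3 had 8.52 and 511 CPM. Every one of the 10 libraries able to form adipocytes lay above all 4 that were not, O1, O2, O3 and OC3, with 40.2 CPM in OAC3 as the lowest of the first and 16.4 CPM in O3 as the highest of the second. In O1 the value rests on 2 reads, which gives an exact Poisson 95% interval of 0.0154 to 0.459 CPM for counting error alone. By group mean the order was A (418 ± 394 CPM), OAC (314 ± 328), OA (115 ± 57.9) and O (7.40 ± 8.28; SD, n = 3 each). The first 3 groups in this order overlapped, and only O lay apart from its neighbour.

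**Figure D2:**
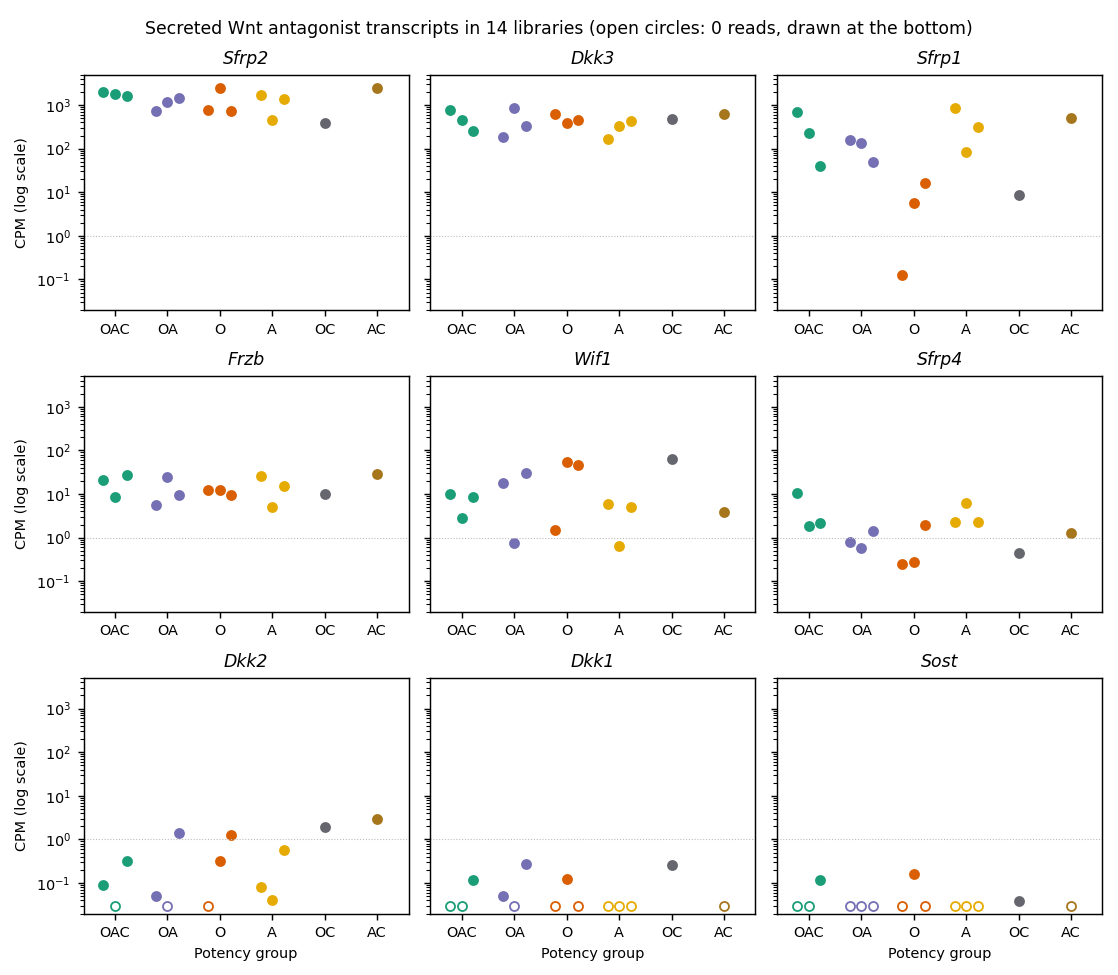
Each panel shows 1 antagonist in CPM on a log axis, with 1 point per library by potency group (3 libraries in OAC, OA, O and A, 1 in OC and AC). Open circles are libraries with 0 reads, and the dotted line marks 1 CPM. Sfrp2 and Dkk3 stay above 100 CPM throughout, Sfrp1 is lowest in O and OC, and Dkk1 and Sost lie near the bottom.

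In the model of the 3 capabilities, Sfrp1 was higher with adipogenic capability by 4.40 ± 1.16 on the log2 scale (SE; edgeR FDR 0.311), with 305 CPM on average in the 10 capable libraries and 7.68 CPM in the other 4. DESeq2 called the same difference (log2 fold change 4.42, adjusted p 0.000575). Sides without overlap, as for Sfrp1, were found for 1.72% of all tested genes in this comparison, and Sfrp1 was the only one of the 7 antagonists with them. Its terms for osteogenic (-1.42 ± 0.98, edgeR FDR 0.748) and chondrogenic capability (0.88 ± 0.87, edgeR FDR 0.809) did not pass.

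Between groups, Sfrp1 was 5.39 ± 1.51 higher in OAC than in O (edgeR FDR 0.730; DESeq2 adjusted p 0.00285) and 3.95 ± 1.41 higher in OA than in O (edgeR FDR 0.851; DESeq2 adjusted p 0.105). The difference of O from A was -5.81 ± 1.54 (edgeR FDR 0.257; DESeq2 adjusted p 0.000197). In all 3 of these pairs the groups did not overlap, which held for 11.5%, 8.2% and 15.7% of all genes in OAC vs O, OA vs O and O vs A. Over the 4 groups together edgeR gave an FDR of 0.744 and DESeq2 an adjusted p of 0.0327. The DESeq2 call in OAC vs O was lost without OAC1 (log2 fold change 4.20, adjusted p 0.113). The call over the 4 groups was lost without A1 (adjusted p 0.086), A3 (0.0618), OAC2 (0.05) or O2 (0.19), and without OA2 and O1 together (0.102). The DESeq2 calls in O vs A and for adipogenic capability stood whichever library was left out, at adjusted p-values of up to 0.0216 and 0.0426. The summed adipocyte markers divided the 14 libraries at the same place as Sfrp1. Of the 8 genes in that sum, only Plin4 and Lpl did so by themselves. The part of these markers in the result was not tested.

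Sfrp2 (chr3:83766321-83774316, plus strand) was abundant in every library, and neither tool called a difference. It had 1963, 1745 and 1570 CPM in OAC1, OAC2 and OAC3, and 731, 1195 and 1418 CPM in OA1, OA2 and OA3. It had 766, 2407 and 738 CPM in the libraries O1, O2 and O3, and 1660, 457 and 1390 CPM in A1, A2 and A3, with 396 CPM in OC3 and 2478 CPM in AC3. The OAC libraries were close together and lay above all OA libraries, but they overlapped with O and with A. The OAC over OA difference was 0.66 ± 0.55 (edgeR FDR 1.0). Groups without overlap were found for 2 of the 7 antagonists in OAC vs OA, Sfrp2 and Sfrp4, and for 4.93% of all genes. Means by group ran from 1759 ± 197 CPM in OAC to 1304 ± 955 in O, 1169 ± 631 in A and 1115 ± 351 in OA (SD, n = 3 each), and each group in this order overlapped with the next. Over the 4 groups edgeR gave an FDR of 1.0. Its terms were -0.13 ± 0.51 for osteogenic, 0.23 ± 0.56 for adipogenic and 0.37 ± 0.48 for chondrogenic capability, with FDR 0.934, 0.877 and 0.812 in edgeR.

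The first of 2 promoter sequences shown here belongs to Sfrp2, the most abundant antagonist, and the second to Sost, which was almost without reads. Both are the 250 bases upstream of the RefSeq start site in build GRCm38.p6, at chr3:83766071-83766320 on the plus strand and chr11:101967016-101967265 on the minus strand. Neither holds CTTTGA, the core of the TCF/LEF motif, or its reverse complement TCAAAG.
Sfrp2: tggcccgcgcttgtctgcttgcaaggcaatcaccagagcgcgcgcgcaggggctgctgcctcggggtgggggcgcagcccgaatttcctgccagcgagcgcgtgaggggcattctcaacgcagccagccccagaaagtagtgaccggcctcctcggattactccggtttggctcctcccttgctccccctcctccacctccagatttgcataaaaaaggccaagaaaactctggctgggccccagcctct
Sost: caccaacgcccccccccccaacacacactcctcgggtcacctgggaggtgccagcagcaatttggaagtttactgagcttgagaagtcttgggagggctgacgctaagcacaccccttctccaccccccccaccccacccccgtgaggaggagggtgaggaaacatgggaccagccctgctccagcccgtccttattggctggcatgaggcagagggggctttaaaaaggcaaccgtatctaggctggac

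The same search in the windows of the 6 analysed antagonists that RefSeq gives here found the letters in Dkk1 and Frzb, and not in Sfrp2, Dkk2, Wif1 or Sost. Of 32851 promoter windows of this length in RefSeq, 13.8% hold them on either strand. The 30 bases around each match are shown to place it in its sequence, with the matching letters in capitals. The Dkk1 matches begin at -174 and -117 from the RefSeq start (chr19:30549653-30549682 and chr19:30549596-30549625, minus strand) and the Frzb match at -95 (chr2:80447474-80447503, minus strand). In GENCODE M21 the transcripts start further upstream, so that the Frzb match and the second Dkk1 match lie inside the annotated gene and the first Dkk1 match reaches into it by 1 base.
Dkk1 first: gaggggagagtgTCAAAGtcctccctgctt
Dkk1 second: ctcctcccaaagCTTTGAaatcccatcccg
Frzb: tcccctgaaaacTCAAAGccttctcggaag

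Frzb (chr2:80411970-80447625, minus strand), a Wnt-binding protein best known from cartilage, was low, with a 5.89-fold range between libraries. It had 21.4, 8.54 and 27.1 CPM in OAC1, OAC2 and OAC3, and 5.56, 24.4 and 9.27 CPM in OA1, OA2 and OA3. It had 12.1, 12.7 and 9.74 CPM in the libraries O1, O2 and O3, and 26.1, 4.94 and 15.0 CPM in A1, A2 and A3, with 10.2 CPM in OC3 and 29.1 CPM in AC3. Each group's range overlapped with every other, and libraries able to form cartilage were not set apart. The edgeR terms were -0.33 ± 0.50 for osteogenic, 0.35 ± 0.52 for adipogenic and 0.49 ± 0.44 for chondrogenic capability (FDR 0.832, 0.797 and 0.809), and the test over the 4 groups gave an FDR of 1.0.

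Sfrp4, which binds Wnt proteins and whose loss in humans causes the cortical bone disorder Pyle disease, was low, at a median of 1.6 CPM. It had 10.6, 1.82 and 2.17 CPM in OAC1, OAC2 and OAC3, and 0.801, 0.589 and 1.39 CPM in OA1, OA2 and OA3. It had 0.254, 0.284 and 1.91 CPM in the libraries O1, O2 and O3, and 2.30, 6.11 and 2.29 CPM in A1, A2 and A3, with 0.454 CPM in OC3 and 1.27 CPM in AC3. All OAC libraries lay above all OA libraries, and all A libraries above all OA and all O libraries, while OAC and O overlapped. The read counts behind these values were 4 to 240, and those of O1 and O2 were the fewest, at 4 and 7.

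The OAC over OA difference of Sfrp4 was 2.38 ± 0.96 (edgeR FDR 1.0), and it was 1.10 without OAC1. OAC was 2.55 ± 0.97 above O (edgeR FDR 0.766), and 1.27 above it without OAC1. The differences from A were -1.94 ± 0.95 for OA (edgeR FDR 0.984) and -2.10 ± 0.95 for O (edgeR FDR 0.511). Groups did not overlap for 1 of the 7 antagonists, Sfrp4, in OA vs A, against 11% of all genes, and for 2, Sfrp1 and Sfrp4, in O vs A. The test over the 4 groups gave an FDR of 0.831 in edgeR and an adjusted p of 0.195 in DESeq2. The capability terms were -0.67 ± 1.06, 1.39 ± 1.06 and 0.90 ± 0.98 for osteogenic, adipogenic and chondrogenic capability, with FDR 0.836, 0.682 and 0.809 in edgeR.

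Wif1 (chr10:121033960-121100650, plus strand), which binds Wnt proteins through its WIF domain, was high in a subset of osteogenic libraries. It had 10.1, 2.76 and 8.76 CPM in OAC1, OAC2 and OAC3, and 17.8, 0.75 and 30.2 CPM in OA1, OA2 and OA3. It had 1.53, 53.9 and 47.2 CPM in the libraries O1, O2 and O3, and 5.83, 0.648 and 5.11 CPM in A1, A2 and A3, with 62.9 CPM in OC3 and 3.89 CPM in AC3. The 5 highest libraries, OC3, O2, O3, OA3 and OA1, were all osteogenic-capable, as were 10 of all 14. Of them, OC3, O2 and O3, the 3 highest, were also not adipogenic-capable. However, O1 and OA2 were among the 3 lowest, so that the O and A groups overlapped. Mean levels were 34.2 ± 28.5 CPM in O, 16.2 ± 14.8 in OA, 7.22 ± 3.92 in OAC and 3.86 ± 2.81 in A (SD, n = 3 each), and each group in this order overlapped with the next.

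The O over A difference of Wif1 was 3.15 ± 1.39 (edgeR FDR 0.496; DESeq2 adjusted p 0.129). The capability terms were 1.62 ± 1.03 for osteogenic (edgeR FDR 0.732), -1.84 ± 0.96 for adipogenic (edgeR FDR 0.564) and -0.29 ± 0.85 for chondrogenic capability (edgeR FDR 0.896). Over the 4 groups the FDR was 0.991 in edgeR. The 5 libraries high in Wif1 had 1339 CPM (OC3), 816 CPM (O2), 209 CPM (O3), 1518 CPM (OA3) and 316 CPM (OA1) of Ibsp, which encodes bone sialoprotein, a matrix protein of osteoblasts. The osteogenic-capable libraries O1 and OA2 had 1.84 and 1.02 CPM of Ibsp. OAC1, OAC2 and OAC3 had 2.73, 125 and 207 CPM of Ibsp. In OAC3 Ibsp was thus close to its level in O3, although Wif1 was at 8.76 CPM against 47.2 CPM. OAC1 had less Ibsp than OAC2 but more Wif1. Ibsp was singled out after its values were seen. The summed osteoblast markers were not low in O1 and OA2. O1 had 55920 CPM, the highest of all 14, and OA2 had 49690 CPM. Most of this was Col1a1 (55500 CPM in O1 and 49080 CPM in OA2). The summed osteocyte markers (5 genes) were also highest in O1, at 23.7 CPM, of which Pdpn gave 22.8 CPM. In O1 Dmp1 was at 0.763 CPM, Fgf23 at 0.127 CPM, and Phex and Mepe at 0 CPM. O1 and OA2 were also the libraries that followed GC content most in the positive direction. With an offset for GC content the O over A difference was 3.18 (edgeR FDR 0.372), and without both libraries it was 3.69 (edgeR FDR 0.172). The part of the osteoblast markers in the difference was not tested.

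**Figure D3:**
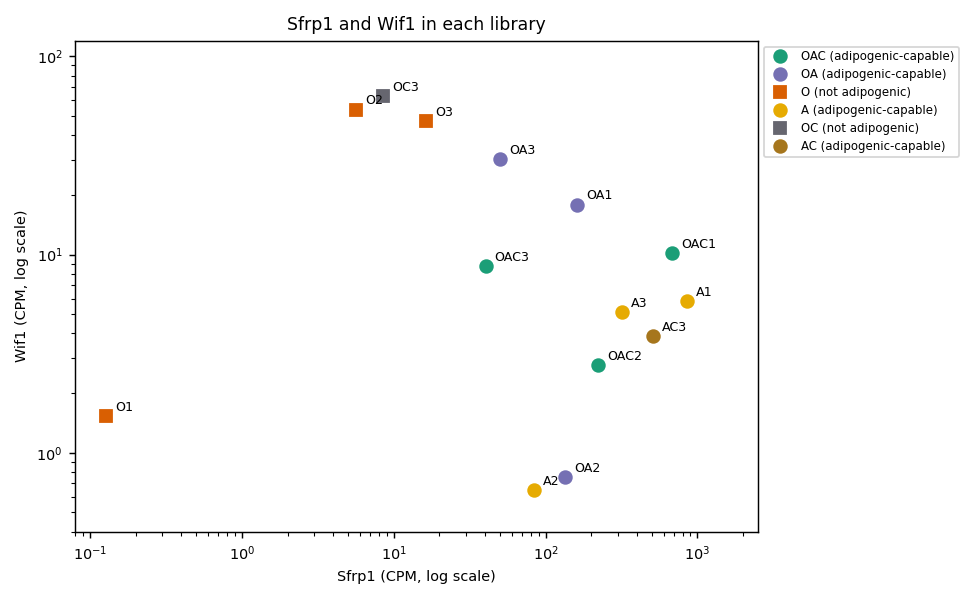
Each point is 1 library, with Sfrp1 on the horizontal and Wif1 on the vertical axis, both in CPM on log axes. Circles mark the 10 adipogenic-capable libraries and squares the 4 that are not. The squares O2, O3 and OC3 sit at the upper left (Wif1 of 47.2 to 62.9 CPM, Sfrp1 of 5.68 to 16.4 CPM), while O1 is low in both genes.

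Across all 14 libraries, Sfrp1 and Wif1 had a Pearson correlation of -0.3 on log2(CPM + 1). The highest Pearson correlations between antagonists were those of Sfrp2 with Frzb (r = 0.639), Sfrp1 with Sfrp4 (0.584) and Dkk2 with Wif1 (0.492). By Spearman's rho the order of these pairs was the reverse, with 0.582 for Sfrp2 and Frzb, 0.64 for Sfrp1 and Sfrp4 and 0.647 for Dkk2 and Wif1. These are descriptions over libraries that share mice, depth and GC trends.

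Among the LRP-binding antagonists, only traces were detected. Dkk1 had 20 reads in all, with 3 in OAC3, 1 in OA1, 6 in OA3, 3 in O2 and 7 in OC3. It had 0 reads in the other 9 libraries, including A1, A2, A3 and AC3. Sost, made in bone mainly by osteocytes, had 8 reads in all, with 3 in OAC3, 4 in O2 and 1 in OC3, and 0 in the other 11. For a count of 0, a floor of 3 counts is 0.112 to 0.191 CPM, depending on the depth of the library. The upper 95% limit for counting error at 0 reads is wider, from 0.138 (O3) to 0.2345 CPM (O1). The measured values of both genes stayed below 0.3 CPM in every library. Their upper 95% limits for counting error reached 0.585 CPM for Dkk1 (OA3) and 0.415 CPM for Sost (O2). As neither gene passed the filter, no test of a difference between groups is given for them. Of the osteocyte markers, Mepe and Fgf23 never reached 1 CPM, while Dmp1 reached 17.6 CPM in OAC2.

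Dkk2, the third LRP-binding antagonist, had 0.0882, 0 and 0.316 CPM in OAC1, OAC2 and OAC3, and 0.0501, 0 and 1.43 CPM in OA1, OA2 and OA3. It had 0, 0.324 and 1.24 CPM in the libraries O1, O2 and O3, and 0.0822, 0.0405 and 0.572 CPM in A1, A2 and A3, with 1.97 CPM in OC3 and 2.89 CPM in AC3. In each group of 3 the pool was the highest library, and all 4 groups overlapped. The largest count was 73 reads. The edgeR terms were -0.99 ± 1.49, -1.24 ± 1.39 and 1.05 ± 1.26 for osteogenic, adipogenic and chondrogenic capability (FDR 0.828, 0.747 and 0.81), and over the 4 groups the FDR was 1.0.

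Dkk3 (chr7:112116017-112159057, minus strand), in contrast, was abundant everywhere. It had 763, 455 and 249 CPM in OAC1, OAC2 and OAC3, and 183, 860 and 334 CPM in OA1, OA2 and OA3. It had 636, 386 and 446 CPM in the libraries O1, O2 and O3, and 170, 338 and 432 CPM in A1, A2 and A3, with 488 CPM in OC3 and 617 CPM in AC3. The highest library exceeded the lowest by 5.04-fold, close to the 6.25-fold range of Sfrp2, and every group overlapped with every other. The edgeR terms were 0.25 ± 0.44, -0.13 ± 0.45 and 0.31 ± 0.39 for osteogenic, adipogenic and chondrogenic capability (FDR 0.854, 0.92 and 0.812), and over the 4 groups the FDR was 1.0.

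**Figure D4:**
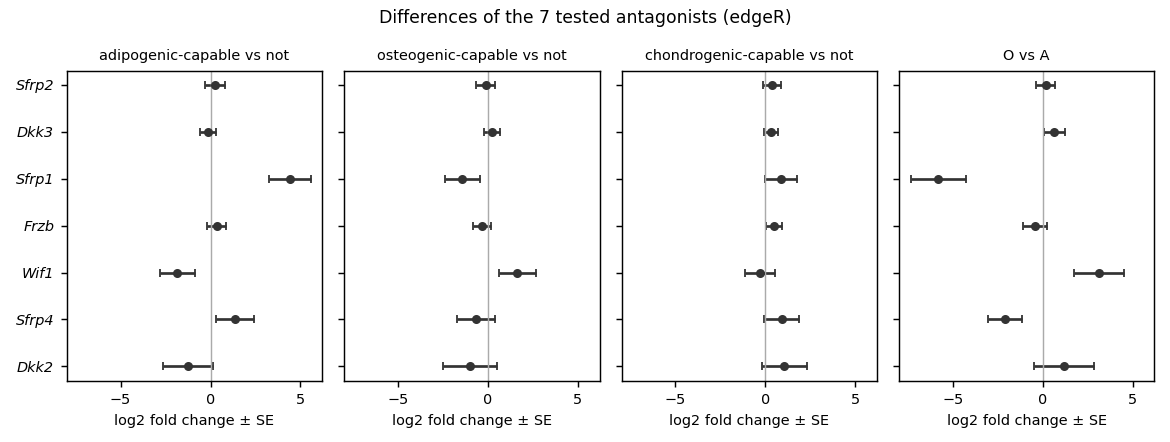
Points are log2 fold changes of the 7 tested antagonists in edgeR and bars are ± SE, for the 3 capability terms (capable over not) and for O over A. Sfrp1 lies at 4.40 for adipogenic capability and at -5.81 for O vs A, and Wif1 lies on the opposite side of 0 in both.

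As a set, the antagonists did not move one way. Their median log2 fold change was 0.54 in OAC vs OA, 0.43 in OAC vs O, 0.45 in OAC vs A, -0.09 in OA vs O, -0.07 in OA vs A and 0.16 in O vs A, where the median of all genes lay between -0.08 and 0.03. For the capability terms it was -0.33 (osteogenic), 0.23 (adipogenic) and 0.49 (chondrogenic), against -0.04 to -0.01 over all genes. In O vs A, 4 antagonists had a positive and 3 a negative value, and for chondrogenic capability 6 were positive and 1, Wif1, negative.

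The genes most like each antagonist were taken as the 3 with the highest Pearson correlation of log2(CPM + 1) over the 14 libraries. For Sfrp1 they were F2r, which encodes the thrombin receptor (r = 0.939), Errfi1, an inhibitor of the EGF receptor (0.932), and Nr1h3, which encodes the sterol-sensing nuclear receptor LXR alpha (0.908). For Wif1 they were Plat, tissue plasminogen activator (0.933), Postn, a matrix protein of periosteum (0.912), and Setd8, a histone H4 methyltransferase (0.911). Those of the other members were weaker, led by Adamts6 for Dkk2 (0.873), Ncstn for Dkk3 (0.861), Pafah1b2 for Sfrp4 (0.849), Scd1 for Frzb (0.792) and Lss for Sfrp2 (0.785). Each is the top of 9847 or 9848 genes compared, the libraries share depth and GC trends, and no test was made.

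Of other extracellular Wnt inhibitors, 5 of 9 listed genes were in the table and 3 were tested, and edgeR called 0. At the same scale as above, Igfbp4, a secreted protein that can bind Frizzled and LRP6, had a median of 157 RPKM. This was above the median of Dkk3 (131 RPKM). Igfbp4 ranged from 44.9 RPKM in A2, where Dkk3 was higher at 101 RPKM, to 1041 RPKM in OA2. Apcdd1 followed with a median of 9.43 RPKM. DESeq2 called Notum, an enzyme that strips the lipid from Wnt proteins, over the 4 groups (adjusted p 0.0388; edgeR FDR 0.71). Notum had 2.60 to 3.47 CPM in OAC, 0.857 to 5.26 CPM in OA, 10.9 to 17.2 CPM in O and 1.56 to 6.08 CPM in A, and the O libraries lay above all others in these groups.

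In every comparison edgeR called 0 of 10 tested Wnt ligands, 17 receptors and co-receptors, 7 R-spondins and their receptors and 12 beta-catenin target genes. Pooled over all comparisons, DESeq2 called 5 genes among them and 0 of the target genes. The share of all genes called in any comparison was not computed, so this pooled count has no background. In a single comparison DESeq2 called at most 1 ligand, 3 receptors and co-receptors and 1 gene of the R-spondin list. It called between 0% (OAC vs OA) and 3.03% (O vs A) of all genes in a single comparison. Rspo2, a secreted protein that strengthens Wnt signalling by protecting the receptors, went the same way as Sfrp1. It had 63.5 to 352 CPM in the 10 adipogenic-capable libraries and 20.6 to 56.9 CPM in the other 4, without overlap. The same held for 1.72% of all genes. The log2 fold change of Rspo2 was 1.95 (edgeR FDR 0.244, DESeq2 adjusted p 0.00171). DESeq2 called Rspo2 in OAC vs O (adjusted p 0.0241) and O vs A (0.00088) as well.

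Wnt5b, a ligand of the non-canonical branch, was lower in the adipogenic-capable libraries (0.686 to 4.81 CPM) than in the others (4.62 to 9.98 CPM), with a narrow overlap (log2 fold change -1.67, edgeR FDR 0.33; DESeq2 adjusted p 0.043). In O vs A its difference was 3.26 (edgeR FDR 0.172; DESeq2 adjusted p 0.000144). Wnt10b, a ligand known to favour bone over fat, had the highest mean RPKM of the ligands (median 19.4) and was not called by either tool.

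The receptors that DESeq2 called were higher with osteogenic capability. Ror2, a receptor for Wnt5a, had 30.9 to 112 CPM in the 10 osteogenic-capable libraries and 11.1 to 21.4 CPM in the other 4. These sides did not overlap, as for 1.06% of all genes (log2 fold change 1.69, edgeR FDR 0.352, DESeq2 adjusted p 0.00302). Lrp4, which presents sclerostin to its targets, had 31.0 to 282 CPM in the osteogenic-capable libraries and 14.3 to 49.6 CPM in the others (2.05, edgeR FDR 0.352; DESeq2 adjusted p 0.0075), with overlap through OA2 and AC3. Lrp4 was thus well expressed in libraries where Sost itself was at or near 0. Fzd9 was low, at 0.973 to 10.8 CPM in the osteogenic-capable and 0.162 to 0.986 CPM in the other libraries, with overlap through O2 and A1 (2.25, edgeR FDR 0.42; DESeq2 adjusted p 0.0293).

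**Figure D5:**
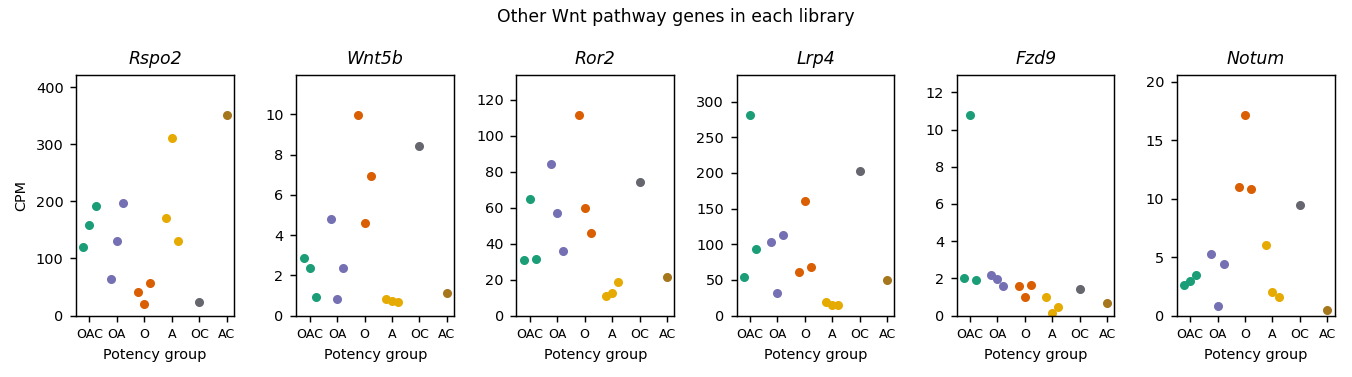
Points show CPM on linear axes, 1 per library by potency group, for the 6 other Wnt pathway genes that DESeq2 called. Rspo2 is lowest in O and OC (20.6 to 56.9 CPM), and Ror2 and Lrp4 are lowest in A (11.1 to 18.5 and 14.3 to 19.1 CPM).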

How the data were processed

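The values deposited by the authors are raw counts of reads for each gene in 14 libraries, made from oligo(dT)-selected RNA with a strand-specific kit, per the labels. The submitters' processing notes name CASAVA 1.8.0, bedtools 2.11 and build mm9. How reads were aligned and filtered, and whether counting used strand, is not given in the sources used here. Sfrp2 overlaps the antisense gene Gm26771 in GENCODE M21, so its count is uncertain to that extent. Exonic lengths are those in the deposited table.

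CPM used TMM-adjusted library sizes. The 13896 genes that reached 1 CPM in 3 or more libraries were tested with edgeR 4.0.16 in R 4.3.3 (quasi-likelihood F test, robust, 6 group means, or 3 additive capability terms), with Benjamini-Hochberg adjustment over all of them at 0.05. The SE of a log2 fold change is its size divided by the square root of F. DESeq2 1.42.0 was the second test, and both were tested on simulated counts. Between 21 and 291 genes had no adjusted p from DESeq2 and do not enter its percentages. Intervals and floors cover counting error only.

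All antagonists are named with every value. A pair's difference is given where edgeR's unadjusted p was under 0.05 or the groups did not overlap. Genes alike had to average 5 CPM, without predicted or unnamed genes. From the other Wnt lists, called genes and the 2 highest by mean RPKM could be named. Members and lists were chosen with earlier results of these data known, and the O vs A difference of Sfrp1 was among those results.

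Alternatives were RLE factors, DESeq2, no filter, a replicate block, a GC offset, leaving out OA2 and O1, single clones alone, leaving out each library (both tools), DESeq2 with the block, and other transcript lengths. Promoters are RefSeq windows on GRCm38.p6, and positions in GENCODE M21 are on GRCm38, not mm9.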

Additional observations from a re-analysis of the deposited data

How the results depend on the processing

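Of 738 values recomputed for 37 results of single antagonists under 21 settings, 718 kept their direction and side of the threshold, 4 passed it with DESeq2 only (Sfrp1 in 4 comparisons: adjusted p 0.0327 over the 4 groups, log2 fold change 5.44 in OAC vs O, -5.79 in O vs A and 4.42 for adipogenic capability), and 16 changed sign. Left out of these are 3 values of Sfrp4, for which DESeq2 gave no adjusted p. None of the 37 results passed in the main test, so a value could change only by passing or by changing sign. Leaving out a library of a group not compared hardly moved a difference, as for Sfrp1 in O vs A without OA1 (-5.81). DESeq2 thus called 1 antagonist in each of the 4 comparisons named. Over all genes it called 291 over the 4 groups, 101 in OAC vs O, 57 in OAC vs A, 42 in OA vs O, 130 in OA vs A, 420 in O vs A, 177, 202 and 3 for osteogenic, adipogenic and chondrogenic capability. edgeR with no filter called 1 gene over the 4 groups and 2 in each comparison with A. With the GC offset it called 1 over the 4 groups and 6 in O vs A. Without OA2 and O1 it called 2 genes in OAC vs A and OA vs A and 3 in O vs A, and with single clones alone 0 in all 3. With each library left out in turn, it called 0 to 1 genes over the 4 groups, 0 to 2 in OAC vs A and OA vs A, 0 to 4 in O vs A and 0 to 1 for osteogenic and adipogenic capability. The cause was not tested.

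The sign changes all concern terms that were not called. For osteogenic capability, leaving out 1 library gave Sfrp2 values from -0.40 to 0.28, Dkk2 from -3.63 to 0.50 and Dkk3 from -0.19 to 0.57. For adipogenic capability it gave Sfrp2 -0.27 to 0.99, Frzb -0.12 to 0.58 and Dkk3 -0.65 to 0.070. For chondrogenic capability it gave Sfrp4 -0.018 to 1.61, Dkk2 -0.15 to 2.71 and Wif1 -0.74 to 0.11. With single clones alone, Frzb had 0.041 (osteogenic) and -0.040 (chondrogenic), and Sfrp2 -0.71 and Dkk3 0.038 (adipogenic). Without OA2 and O1, Dkk3 had -0.23 (osteogenic). For Sfrp1 and adipogenic capability, the range with 1 library left out was 3.94 (without OAC1) to 5.28 (without O3). The leave-one-out and blocked DESeq2 fits and the use of the deposited exonic length were chosen after the data were seen.

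Same-numbered libraries deviated together in only part of the pairs (r over 0.1 in 11 of 18, from -0.638 to 0.769), and 7 of 12 libraries were closest to their own number, and the sources used here do not say that a number marks a shared mouse across groups, so the numbers were not taken as pairs. With the replicate block edgeR called 1 gene each in OAC vs A, OA vs A and O vs A, 0 elsewhere and 0 antagonists. Sfrp1 then had 3.86 for adipogenic capability and was not called by edgeR. DESeq2 with the replicate block called Sfrp1 in OAC vs O (4.83, adjusted p 0.0127), in O vs A (-5.17, adjusted p 0.0015) and for adipogenic capability (3.88, adjusted p 0.00668), not over the 4 groups (adjusted p 0.123), and it also called Wif1 in O vs A (4.05, adjusted p 0.0164). Over all genes this fit called 353 over the 4 groups, 167 in OAC vs O, 554 in O vs A and 222 for adipogenic capability. Without the block DESeq2 called fewer genes in each of these, at 291, 101, 420 and 202.

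Other scalings moved a level by 0.881 to 1.06 times, and other transcript lengths left the order of the 9 antagonists as it was. Levels below 1 CPM (Dkk1, Sost, most of Dkk2) rest on few reads.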

Other observations

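Dkk2 had more reads in most pools than in the single clones. The 6 pools had 8, 32, 33, 15, 52 and 73 reads (OAC3, OA3, O3, A3, OC3 and AC3), while the 8 single clones had 2 and 0 (OAC1 and OAC2), 1 and 0 (OA1 and OA2), 0 and 8 (O1 and O2), and 2 and 1 (A1 and A2). In CPM the pools and the single clones overlapped, with 0.316 in the pool OAC3 and 0.324 in the single clone O2. Dkk2 passed the expression filter through pools alone. The rank correlation with GC content was negative in every pool, from -0.55 (OAC3 and OC3) to -0.17 (A3). It was -0.473 in O2, the single clone with most Dkk2 reads, and -0.0996 (A2) to 0.658 (OA2) in the other single clones. The difference was noticed after the values were seen. Neither the difference nor the part of GC content in it was tested.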
